A study of Mus musculus with 10 samples.

Results

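The 30 genes described here mark T cells and carry the signal of their antigen receptor. They were taken from a given list, as 30 of the 46983 genes counted in each library, and each symbol matched exactly 1 Ensembl identifier. RNA came from the right thoracic mammary fat pads of virgin female C57BL/6 mice at PND (postnatal day) 130, 4 weeks after folic acid (FA) supplementation ended. There was 1 library per mouse, named here by its title: T1224, T1234, T1314, T1324 and T1334 from mice that ate the CFA diet with 1 mg FA/kg, and T2214, T2224, T2234, T2314 and T2334 from mice that ate the HFA diet with 5 mg FA/kg. The labels name no transgene or deletion for any mouse, and all were given the same maintenance diet after supplementation, so the comparison is of FA dose in the past and not of current intake. Levels are CPM, the counts of a gene scaled to a common library total by TMM, which is edgeR's correction for differences in RNA composition.

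T cells recognise peptides with a receptor whose variable chains sit in the membrane beside the invariant CD3 chains. The coreceptors CD4 and CD8 bring the kinase LCK to the engaged receptor, LCK phosphorylates the CD3 tails, and ZAP70 docks there and passes the signal to the scaffold LAT. In the resting mouse mammary gland T cells lie among epithelium and fat, and larger numbers sit in lymph nodes within or beside the fat pads.

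The libraries were read separately by the level of *Ighd*, which encodes the heavy chain of the IgD receptor of naive B cells. *Ighd* was 105 CPM in T1234, 290.0 CPM in T1334 and 895 CPM in T2334, and between 0.914 and 1.64 CPM in the other 7 libraries, so a limit of 50 CPM left 3 libraries above (2 CFA, 1 HFA) and 7 below (3 CFA, 4 HFA). The split was the same with a limit of 10 CPM or without TMM scaling, and with a limit of 200 CPM T1234 moved to the lower class. These classes were made from the data and are not groups of the study, and the values below and above are given as a description, with no test. In a piece of whole tissue, fewer T cells, less RNA per T cell and less RNA of the same genes from other cells cannot be told apart.

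The reads on genes numbered 7672199 to 14829291 per library. Over all genes, T2334 had a median correlation of 0.798 with its 9 fellows, and no other library had one below 0.918. The markers of the tissue were present in every library, with summed levels of 201 to 1482 CPM for 5 epithelial genes and 8546 to 14518 CPM for 5 adipocyte genes, and 5 skeletal muscle genes summed to 635 CPM in T2334 against 6117 to 49639 CPM in the other libraries.

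The genes of the CD3 chains varied together over the libraries, and their start regions are shown for that reason. *Cd3g* and *Cd3d* lie head to head on chromosome 9, with 1354 bases between their starts, and *Cd3e* follows on the same chromosome, its end 11400 bases from the end of *Cd3d*. Each line gives the 250 bases before and the first 50 bases after the start of the gene, 5′ to 3′ on the strand of the gene, from RefSeq on GRCm38.p6. The windows are chr9:44980382-44980681 on the minus strand for *Cd3g*, chr9:44981536-44981835 on the plus strand for *Cd3d*, chr9:45009562-45009861 on the minus strand for *Cd3e* and chr1:165788431-165788730 on the plus strand for *Cd247*. Capitals mark matches on either strand to GGAAGT, a core of ETS factor sites (on the other strand it reads ACTTCC), to CTTTGA, a core of sites of TCF and LEF factors (on the other strand it reads TCAAAG), and to AGATAA, a core of GATA factor sites.
Cd3g: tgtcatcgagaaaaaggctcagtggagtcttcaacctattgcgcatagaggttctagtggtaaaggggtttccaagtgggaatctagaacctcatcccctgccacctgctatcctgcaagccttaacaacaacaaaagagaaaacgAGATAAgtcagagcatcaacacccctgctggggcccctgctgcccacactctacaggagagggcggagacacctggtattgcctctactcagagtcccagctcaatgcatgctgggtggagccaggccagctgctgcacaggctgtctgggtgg
Cd3d: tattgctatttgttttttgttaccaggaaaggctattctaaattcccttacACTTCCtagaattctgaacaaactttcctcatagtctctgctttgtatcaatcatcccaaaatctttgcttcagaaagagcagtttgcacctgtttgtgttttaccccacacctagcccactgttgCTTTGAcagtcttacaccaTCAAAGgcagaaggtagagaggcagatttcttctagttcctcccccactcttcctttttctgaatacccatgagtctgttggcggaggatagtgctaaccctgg
Cd3e: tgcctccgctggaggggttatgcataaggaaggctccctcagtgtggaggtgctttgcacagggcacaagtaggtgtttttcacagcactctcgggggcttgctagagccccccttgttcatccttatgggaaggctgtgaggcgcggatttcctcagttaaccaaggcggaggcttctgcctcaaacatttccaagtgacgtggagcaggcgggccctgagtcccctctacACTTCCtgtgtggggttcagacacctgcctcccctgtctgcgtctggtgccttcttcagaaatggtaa
Cd247: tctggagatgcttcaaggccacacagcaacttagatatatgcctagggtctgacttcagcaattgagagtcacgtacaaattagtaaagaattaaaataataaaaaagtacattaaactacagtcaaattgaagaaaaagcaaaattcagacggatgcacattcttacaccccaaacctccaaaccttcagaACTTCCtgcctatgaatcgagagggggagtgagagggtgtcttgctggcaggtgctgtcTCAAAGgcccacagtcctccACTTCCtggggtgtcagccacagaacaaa

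The *Cd247* window held 2 matches to the ETS core and 1 to the TCF/LEF core. That of *Cd3d* held 1 and 2, that of *Cd3e* 1 and 0, and that of *Cd3g* none of either but 1 match to the GATA core. RefSeq gave a window for 19 of the 30 genes. The ETS core was in 8 of these 19 (42.1%; *Cd247*, *Lck*, *Txk*, *Cd3d*, *Cd3e*, *Bcl11b*, *Il7r* and *Cd5*) and in 24.1% of all 27025 windows. The TCF/LEF core was in 7 (36.8%; *Zap70*, *Ctla4*, *Cd247*, *Txk*, *Cd27*, *Cd3d* and *Bcl11b*) and in 16.2% of all windows. The E-box CANNTG was also in a higher share of the 19, in 18 (94.7%) against 72.1%. TGTGGT, the RUNX core, was in 3 (15.8%) against 16.9%, and TATAAA, the TATA box, in 3 (15.8%) against 14.2%. AGATAA was in 1 (5.26%) against 11.4%. These are matches of letters and not sites shown to be bound.

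All 30 genes were higher in each of the 3 libraries with *Ighd* above 50 CPM than in any of the 7 below, as were 10.4% of the 15610 genes tested between diets. For all 30 the order of these 3 libraries was T2334, T1334 and T1234, which is also their order by *Ighd*. The median of the 3 libraries was 2.01 (*Thy1*) to 173 (*Lef1*) times the median of the 7, with a median of 27.1 over the 29 genes whose lower median was above 0. T2334 was 1.69 (*Thy1*) to 4.10 (*Ctla4*) times T1334, and T1334 was 1.06 (*Thy1*) to 2.84 (*Lef1*) times T1234. The log2 ratio of the class medians, with 0.5 CPM added, had a median of 4.33 over the 30 genes and −0.04 over all genes tested.

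**Figure D1:**
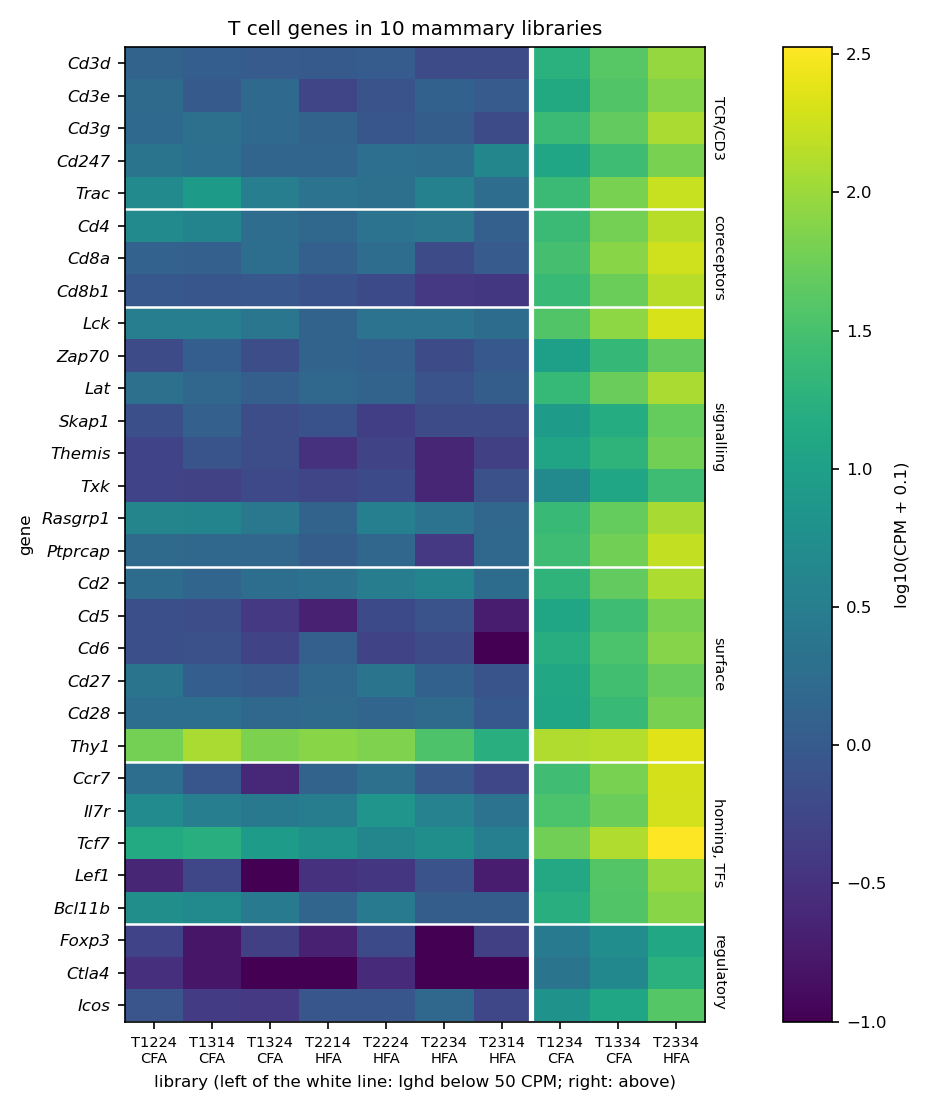
Level of each of the 30 genes (rows, grouped by role) in each library (columns, with diet), as log10 of CPM plus 0.1. The 3 columns right of the vertical line, with *Ighd* above 50 CPM, are brighter than the 7 to its left in every row, and the row of *Thy1* is bright throughout.

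Of the receptor genes, *Cd3e* encodes an invariant chain that carries the signal inward. It was at 13.8, 36.6 and 74.2 CPM in T1234, T1334 and T2334. It was at 1.58, 0.910 and 1.52 CPM in the CFA libraries T1224, T1314 and T1324 and at 0.443, 0.690, 1.14 and 0.914 CPM in the HFA libraries T2214, T2224, T2234 and T2314. The first 3 libraries thus stood 8.75 times or more above the others, and the diets overlapped among the 7 libraries. In the same order of libraries, *Trac*, the constant region of the receptor's alpha chain, was at 25.2, 65.9 and 168 CPM with *Ighd* above 50, and at 4.67, 8.13 and 3.11 CPM (CFA) and 2.10, 1.90, 3.41 and 1.74 CPM (HFA) below. T1314 was the highest of the 7 for *Trac*, and the lowest library above the limit had 3.10 times its level. The other invariant chains *Cd3d*, *Cd3g* and *Cd247* ranged from 11.6 to 119.6 CPM in the 3 libraries and from 0.549 to 4.11 CPM in the 7. *Cd247* (zeta chain) was at 4.11 CPM in T2314, a library in which the other 4 receptor genes were at 1.74 CPM or less. *Cd247* shares exon bases with 2 other counted genes on GRCm38, *Pou2f1* and *Gm16565*, so its counts are less certain than those of *Cd3e*.

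The coreceptors *Cd4*, of helper and regulatory T cells, and *Cd8a* and *Cd8b1*, the chains of the CD8 coreceptor of cytotoxic T cells, had the same split. *Cd4* was at 24.9, 60.6 and 141 CPM in T1234, T1334 and T2334, and at 4.74, 3.84 and 1.73 CPM (CFA) and 1.44, 2.07, 2.41 and 1.10 CPM (HFA) in the 7 others. *Cd8a* was at 30.5, 79.8 and 189 CPM in the 3 libraries, and at 1.17, 1.11 and 1.81 CPM (CFA) and 1.11, 1.73, 0.568 and 0.914 CPM (HFA) in the 7. Of all 30 genes, *Cd8b1* had the widest gap between the classes, its lowest value above the limit (23.4 CPM) being 28.4 times its highest below (0.824 CPM). Some mouse dendritic cells also carry CD4 or CD8 alpha chains, so *Cd4* and *Cd8a* do not mark T cells alone.

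The 8 signalling genes followed. *Lck*, the kinase held by the coreceptors, was at 37.0, 85.1 and 207 CPM in T1234, T1334 and T2334, and at 3.09, 3.12 and 2.31 CPM (CFA) and 1.22, 2.07, 2.13 and 1.65 CPM (HFA) in the others. *Zap70*, the kinase that docks on the CD3 tails, and *Lat*, the scaffold it phosphorylates, were at 9.76 to 48.2 CPM and 23.0 to 121 CPM in the 3 libraries, and at no more than 1.22 and 1.92 CPM in the 7. *Rasgrp1*, which links the receptor to RAS, was at 23.8 to 115 CPM and 1.22 to 3.98 CPM. *Ptprcap*, a partner of the phosphatase CD45, was at 27.1 to 161 CPM and 0.284 to 1.58 CPM. Its exons overlap those of *Coro1b* and *Rps6kb2*, so part of its reads may have been left uncounted. The adaptor *Skap1*, *Themis*, a regulator of thymic selection, and the TEC family kinase *Txk* were at 4.83 to 59.2 CPM in the 3 libraries and at no more than 1.11 CPM in the 7, where they rested on 54, 37 and 37 reads in all.

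Among surface molecules, the adhesion receptor *Cd2*, the inhibitory receptors *Cd5* and *Cd6* and the costimulatory receptors *Cd27* and *Cd28* ranged from 11.6 to 124 CPM in the 3 libraries and from 0 to 3.83 CPM in the 7. The 0 was *Cd6* in T2314, where no count allows a level of up to 0.274 CPM (a limit of 3 counts, which covers counting error only). *Thy1* stood apart. It encodes THY1 (CD90), which fibroblasts and other stromal cells make as well as T cells. *Thy1* was at 127, 135 and 229 CPM in T1234, T1334 and T2334, and at 61.2, 119 and 67.4 CPM (CFA) and 80.0, 70.8, 35.2 and 16.7 CPM (HFA) in the 7 others, so its classes were only 1.07-fold apart at their nearest values. T2314 had the lowest *Thy1* and also the lowest summed level of 5 fibroblast genes among the 7 libraries (681 CPM, against 2160 to 3679 CPM in the other 6). The part of fibroblasts in the *Thy1* level was not tested. *Thy1* made up most of the summed level of the 30 genes in each of the 7 libraries but T1224, T2234 and T2314: the sum with it was 45.7 to 183 CPM, and 29.0 to 65.2 CPM without it.

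*Ccr7*, the receptor by which naive T cells enter lymph nodes, was at 28.0, 65.1 and 200.2 CPM in T1234, T1334 and T2334, and at 1.79, 0.780 and 0.145 CPM (CFA) and 1.22, 1.90, 0.851 and 0.457 CPM (HFA) in the 7 others. *Lef1*, a transcription factor of naive T cells, had the largest ratio of the class medians, at 13.5, 38.4 and 96.6 CPM in the 3 libraries against 0 to 0.710 CPM in the 7, where it rested on 20 reads in all. *Tcf7* encodes TCF1, the partner of LEF1 in the same cells. It was at 60.3, 127 and 336 CPM in the 3 libraries and at 14.3, 16.3 and 8.74 CPM (CFA) and 6.09, 4.05, 5.68 and 3.20 CPM (HFA) in the 7. All 4 HFA values lay under all 3 CFA values. *Il7r*, the receptor of the survival cytokine IL-7, ranged from 33.2 to 194.7 CPM and from 2.10 to 6.73 CPM. *Bcl11b*, a transcription factor that fixes T cell identity, was at 16.8, 37.4 and 79.6 CPM in the 3 libraries and at 5.36, 4.68 and 2.67 CPM (CFA) and 1.33, 2.67, 0.993 and 1.01 CPM (HFA) in the 7.

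*Foxp3*, the transcription factor that defines regulatory T cells, was at 2.74, 5.30 and 12.7 CPM in T1234, T1334 and T2334 and at 0 to 0.518 CPM in the 7 others, on 23 reads in all. *Ctla4*, an inhibitory receptor high on regulatory and activated T cells, was at 2.19, 4.33 and 17.8 CPM in the 3 libraries. It had 6 reads in all in the 7, with no read in T1324, T2214, T2234 and T2314, whose counts of 0 allow up to 0.216, 0.332, 0.425 and 0.274 CPM. *Icos*, a costimulatory receptor of activated and follicular helper T cells, was at 6.14, 12.2 and 39.4 CPM in the 3 libraries and at 0.289 to 1.42 CPM in the 7. Differences between diets in *Foxp3* and *Ctla4* were therefore not detectable at this depth in the libraries with little *Ighd*.

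Per kilobase of exon, the class median with *Ighd* above 50 was highest for *Trac* (70.5 CPM/kb), *Tcf7* (48.4 CPM/kb) and *Thy1* (45.2 CPM/kb), and lowest for *Txk* (1.10 CPM/kb) and *Foxp3* (1.16 CPM/kb). In the 7 libraries *Thy1* led at 22.5 CPM/kb, ahead of *Trac* (3.32 CPM/kb) and *Tcf7* (2.32 CPM/kb), and the median over the 30 genes was 0.356 CPM/kb. The median CPM of the 7 libraries was below 1 for 14 of the 30 genes and above 5 for *Thy1* and *Tcf7* alone.

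**Figure D2:**
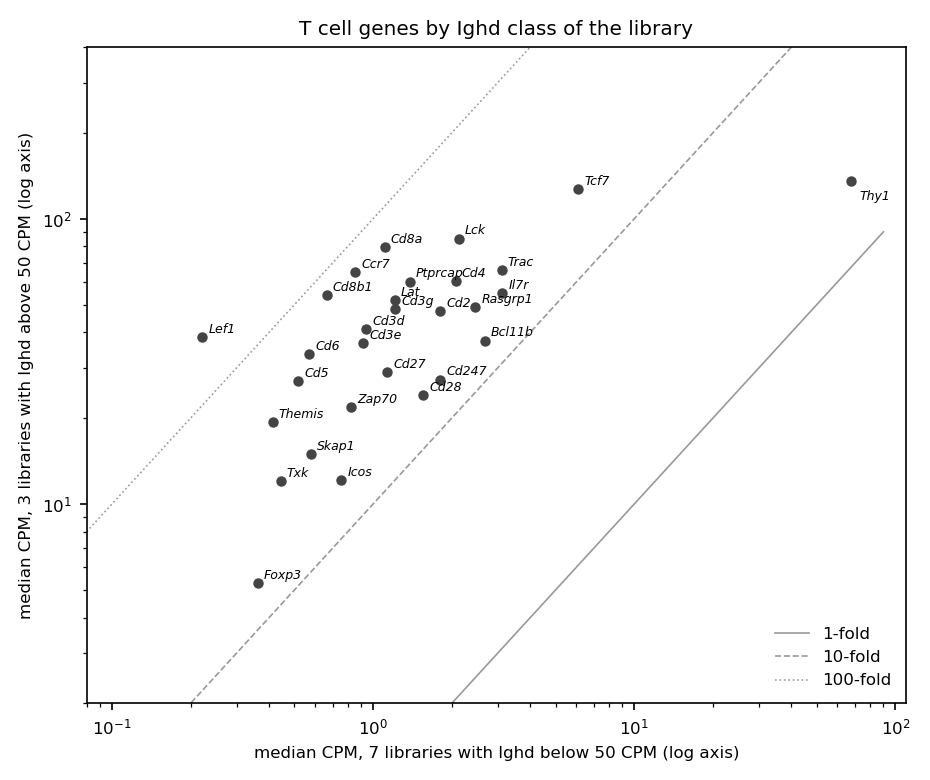
Median CPM in the 7 libraries with *Ighd* below 50 CPM (x axis, log scale) against that in the 3 libraries above (y axis, log scale) for 29 of the 30 genes, with lines of equal level, 10-fold and 100-fold. *Ctla4* is left out because its lower median was 0. Most genes lie between the 10-fold and 100-fold lines, *Lef1* lies above and *Thy1* lies near equality, at 2.01-fold.

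Markers of other cells moved with the same 3 libraries. All 12 B cell genes were higher in each of them than in any other library, with summed levels of 756 to 5650 CPM against 42.2 to 105 CPM. *Ighd*, by which the classes were made, is 1 of the 12. Its place was therefore fixed in advance, and its level is part of these sums. Of 6 lymph node stroma genes, 4 were higher in each of the 3 libraries than in any of the 7. Among them was *Glycam1*, a ligand of L-selectin on the high endothelial venules of lymph nodes. It was at 275, 519 and 733 CPM in T1234, T1334 and T2334 against no more than 1.22 CPM elsewhere. The others of the 6 were *Ccl21a*, with no read in any library, and *Ccl19*. The classes overlapped for *Ccl19*, at 0.110 to 1.02 CPM in the 3 libraries and 0 to 0.145 CPM in the 7. Of 5 genes of immature T cells in the thymus, 1 was higher in each of the 3 libraries than in any of the 7. *Rag1* and *Rag2* had no read in any library and *Ptcra* had at most 0.142 CPM. Of 25 other genes of the receptor pathway, 19 were higher in each of the 3 libraries than in the 7. Of the lists of related lymphocytes, 5 of 10 cytotoxic effector genes, 4 of 5 gamma delta T cell genes and 3 of 6 natural killer and innate lymphoid genes had no overlap. Beside all these counts, 10.4% of the 15610 genes tested between diets were higher in each of the 3 libraries than in any of the 7. What part the other cell types had in the levels of the 30 genes was not tested.

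To ask whether the FA dose changed these genes, HFA was compared with CFA over all 10 libraries with edgeR's quasi-likelihood test, on the 15610 genes that passed its filter on low counts. Of the 30 genes 22 passed the filter, and 8 did not (*Skap1*, *Themis*, *Txk*, *Cd5*, *Cd6*, *Lef1*, *Foxp3* and *Ctla4*). At an adjusted p below 0.05 (Benjamini-Hochberg, over all genes tested), 0 of the 22 differed, as did 0% of all genes. At an unadjusted p below 0.05 there were also 0 of the 22, against 7.36% of all genes. With DESeq2, edgeR's likelihood ratio test and both forms of limma voom (plain and quality-weighted), 0 of the 22 passed the adjusted threshold. Of all genes, DESeq2 called 0.384%, the likelihood ratio test 0.211%, plain voom 0% and quality-weighted voom 6.64%. The log2 fold changes were between −0.24 and 1.15, with a median of 0.70 and standard errors of 0.58 to 1.82. Of all genes, 39.96% were below 0, and 21 of the 22 were above 0.

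These positive values rested on T2334. *Cd3e* had a mean of 15.5 ± 32.8 CPM in HFA and 10.9 ± 15.4 CPM in CFA (SD, n = 5 each), a log2 fold change of 0.52 (SE 1.53, adjusted p = 0.942). Without T2334 it was −3.82 (adjusted p = 0.112). *Tcf7* had a log2 fold change of 0.65 (SE 1.37, adjusted p = 0.923), and −3.30 (adjusted p = 0.0765) without T2334. *Thy1* was the gene below 0, at −0.24 (SE 0.58, adjusted p = 0.931), and 0.025 without T2314. Without T2334, 2 of the 5 CFA libraries but none of the 4 HFA libraries had *Ighd* above 50 CPM. There all 22 were below 0 with a median of −3.30, and 55.11% of all genes were below 0. Of the 22, 0 passed the adjusted threshold, as did 0.0381% of all genes. At an unadjusted p below 0.05, 20 were lower in HFA, as were 15% of all genes. With the *Ighd* class as a term in the fit of all 10 libraries, 0 of the 22 passed the adjusted threshold, as did 0% of all genes. Of all genes, 43.4% were below 0. Of the 22, 18 were above 0 and the median was 0.50. At an unadjusted p below 0.05 there were 3, all higher in HFA (*Cd2*, *Zap70* and *Icos*), against 12.2% of all genes in either direction.

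Within the 7 libraries with *Ighd* below 50 CPM (3 CFA, 4 HFA), 15 of the 21 genes tested had a negative log2 fold change, and *Tcf7* passed the threshold. The same test was run on the 15759 genes that passed the filter there, of which 469 (2.98%) were called at an adjusted p below 0.05. That count rested on single libraries, with 1236 genes called without T1324 and at most 7 without any 1 of the other 6. Over all genes tested 49% had a negative value. The median log2 fold change of the 21 was −0.52, and the other 9 genes did not pass the filter. *Tcf7* (ENSMUSG00000000782) lies on the minus strand of chromosome 11, from 52252371 to 52283014 on GRCm38. It had a mean of 13.1 ± 3.92 CPM in CFA (SD, n = 3) and 4.75 ± 1.36 CPM in HFA (SD, n = 4), and fell by 1.48 on the log2 scale (SE 0.29, adjusted p = 0.0430). *Tcf7* was the single gene of the 21 called. Without any 1 of T1224, T1314, T2214, T2224, T2234 or T2314 the call was lost, with log2 fold changes of −1.63 to −1.29 and adjusted p of 0.0664 to 0.212, and without T1324 it was kept.

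Among the others, *Bcl11b* and *Trac* came nearest to the threshold. *Bcl11b* had a mean of 4.24 ± 1.40 CPM in CFA (SD, n = 3) and 1.5 ± 0.798 CPM in HFA (SD, n = 4), with a log2 fold change of −1.46 (SE 0.41, adjusted p = 0.0810). The lowest CFA library (T1324) and the highest HFA library (T2224) were both near 2.67 CPM. *Trac* had means of 5.30 ± 2.57 and 2.29 ± 0.761 CPM and a log2 fold change of −1.24 (SE 0.38, adjusted p = 0.101), with T2234 above the lowest CFA library. Without T1324, and by DESeq2 or the likelihood ratio test on all 7, both passed the threshold beside *Tcf7*, giving 3 genes of 22 without T1324 and 3 of 21 by the other tests. The same settings called 7.71% (without T1324), 10.9% (DESeq2) and 10.1% (likelihood ratio test) of all genes. *Tcf7*, *Bcl11b*, *Trac*, *Cd4*, *Cd3g* and *Lck* had an unadjusted p below 0.05, all lower in HFA, as did 11.5% of all genes. *Cd4* (−0.98, SE 0.41, adjusted p = 0.192), *Cd3g* (−0.91, SE 0.35, adjusted p = 0.162) and *Lck* (−0.69, SE 0.29, adjusted p = 0.192) did not pass the adjusted threshold. For *Cd3g*, *Cd8b1*, *Lck* and *Tcf7*, 4 of the 30 genes, every HFA library lay under every CFA library, as for 10.6% of all genes, and for 0 of the 30 did every HFA library lie above. *Cd3g* was at 1.51, 1.89 and 1.52 CPM (CFA) and 1.22, 0.776, 0.993 and 0.549 CPM (HFA), and *Cd8b1* at 0.824, 0.780 and 0.795 CPM and 0.664, 0.518, 0.284 and 0.274 CPM. These rested on few reads. *Cd3g* had 22, 29 and 21 reads (CFA) and 11, 9, 7 and 6 reads (HFA). *Cd8b1* had 12, 12 and 11 reads (CFA) and 6, 6, 2 and 3 reads (HFA).

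Not all of the genes were lower. *Cd2* was at 1.65, 1.30 and 1.81 CPM (CFA) and 1.99, 2.93, 3.83 and 1.65 CPM (HFA), a log2 fold change of 0.70 (SE 0.35, adjusted p = 0.277). *Zap70* (0.37), *Cd247* (0.34), *Ccr7* (0.30), *Il7r* (0.13) and *Cd27* (0.01) were also above 0, with adjusted p of 0.634 to 0.995. *Thy1* had means of 82.7 ± 32.0 CPM (CFA, SD, n = 3) and 50.7 ± 29.8 CPM (HFA, SD, n = 4) and a log2 fold change of −0.70 (SE 0.47, adjusted p = 0.411).

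**Figure D3:**
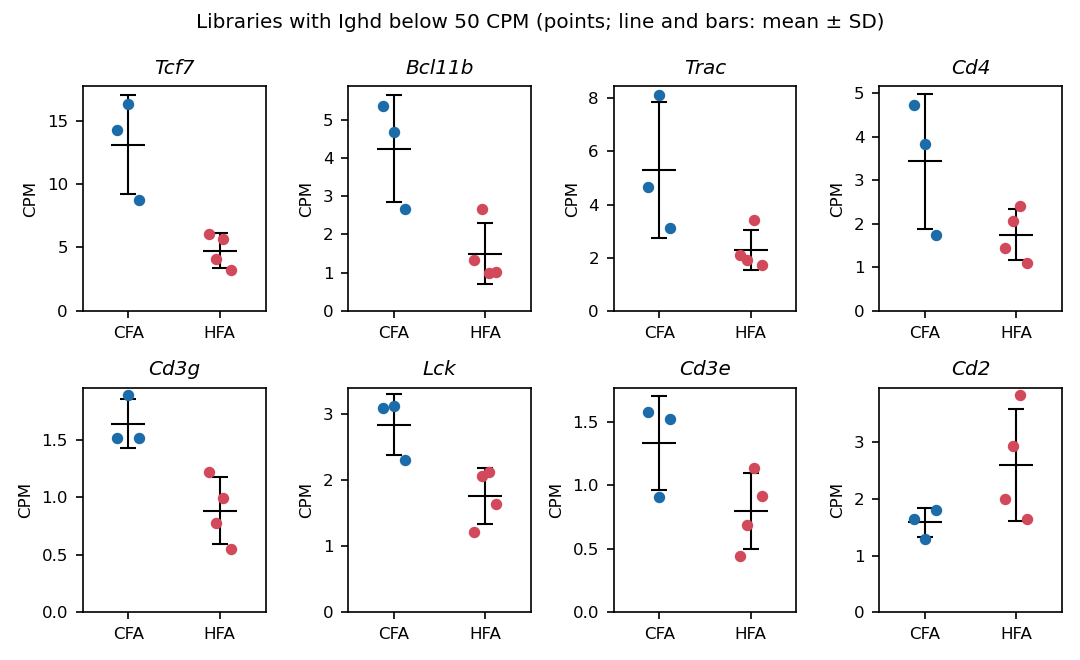
CPM of 8 of the genes in the 7 libraries with *Ighd* below 50 CPM, by diet (3 CFA, 4 HFA). Points are libraries, the line is the mean and the bars are the SD. The HFA points of *Tcf7*, *Cd3g* and *Lck* lie under all CFA points, those of the other genes overlap, and for *Cd2* the HFA mean is the higher.

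**Figure D4:**
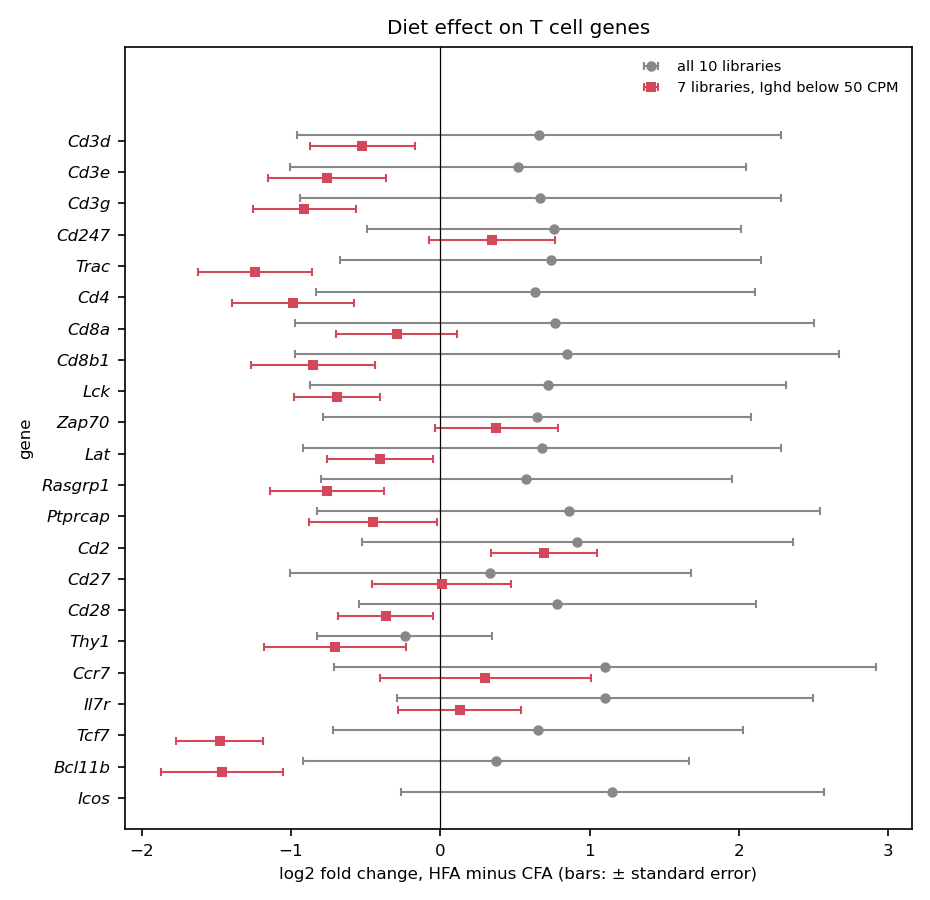
Log2 fold change, HFA minus CFA, with its standard error, for the 22 genes tested over all 10 libraries (grey circles) and for the 21 tested in the 7 libraries with *Ighd* below 50 CPM (red squares). Grey bars are wide and all but *Thy1* are right of 0, and 15 red squares are left of 0, with *Tcf7* and *Bcl11b* farthest.

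The 7 libraries also differed by diet in other tissue markers. Of 5 epithelial genes, *Krt14*, *Krt5* and *Epcam* were lower in HFA at an adjusted p of 0.0470, 0.0428 and 0.0480 (log2 fold changes −1.03, −1.03 and −0.83), and the 5 genes summed to 955 to 1187 CPM (CFA) and 651 to 1035 CPM (HFA). The 5 skeletal muscle genes had log2 fold changes of 0.85 to 1.12, none past the adjusted threshold, and summed to 15689 to 30375 CPM (CFA) and 37463 to 49639 CPM (HFA). The 12 B cell genes summed to 44.5 to 105 CPM (CFA) and 42.2 to 96.7 CPM (HFA), and 0 of the 5 tested were called. Of the 25 other genes of the receptor pathway 20 were tested there, 0 were called lower and 1 higher, namely *Prkcq* (log2 fold change 1.08, SE 0.22, adjusted p = 0.0453), a kinase of the receptor's signal that skeletal muscle also makes. The part of epithelium and muscle in the values of *Tcf7* and the other genes was not tested.

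Above 50 CPM the HFA group is T2334 alone, so a difference of the diet effect between the *Ighd* classes cannot be told apart from what is particular to that library. In 1 fit of all 10 libraries, an interaction of diet and *Ighd* class was added. The diet estimate was more negative below 50 CPM than above for 48.8% of all genes and for all 22 genes tested here. An adjusted p below 0.05 was reached by 10 of them, against 8.71% of all genes in either direction. The estimates farthest from 0 were those of *Tcf7* (−3.32 on the log2 scale, SE 0.56), *Trac* (−3.13, SE 0.71) and *Bcl11b* (−3.00, SE 0.70).

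Ratios of 2 genes within a library do not depend on its scaling, and 4 were compared between diets by a two-sided exact permutation test, whose smallest p with 5 against 5 is 0.00794. Each is the log2 of the ratio of counts, with 1 count added to each, and is not corrected for gene length. At the few reads of these genes in the 7 libraries with *Ighd* below 50 CPM, the added count moves the ratio with depth. The ratio of *Cd4* to *Cd8a* was between −0.42 and −0.29 in the 3 libraries with *Ighd* above 50 and between −0.06 and 1.96 in the 7 below, without overlap. HFA minus CFA was −0.14 (n = 5 each, exact p = 0.929, adjusted over the 4 ratios 0.929), and it was 0.20 without T1224, 0.15 without T1314 and 0.08 without T2334. The ratio of *Foxp3* to *Cd4* was −3.50 to −3.13 above and −4.91 to −1.38 below the limit, where *Foxp3* had 0 to 6 reads per library. The difference was 0.65 (n = 5 each, exact p = 0.373, adjusted 0.889). With 1 library left out it ran from 0.27 (without T1314) to 1.01 (without T2234), and it was 0.48 with 0.5 counts added in place of 1.

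The ratio of *Ccr7* to *Cd3e* was 0.83 to 1.43 above and −2.87 to 1.35 below, with a difference of 0.78 (n = 5 each, exact p = 0.444, adjusted 0.889). It was 0.11 without T1324 and 1.31 within the 7 libraries. The ratio of *Cd3e* to *Cd79a*, a T cell gene to a gene of the B cell receptor, was −2.55 to −2.03 above and −0.85 to 1.46 below, again without overlap. Relative to *Cd79a* there was thus less *Cd3e* in each of the 3 libraries than in any of the 7. The 3 libraries were set apart by *Ighd*, itself a B cell gene. Their low ratio to *Cd79a* is therefore tied to the split and is no separate result. In the latter it was 0.91 to 1.46 in CFA and −0.85 to 1.17 in HFA. The difference over all libraries was −0.35 (n = 5 each, exact p = 0.730, adjusted 0.929), and it was 0.04 without T1324 and 0.18 without T2334.

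**Figure D5:**
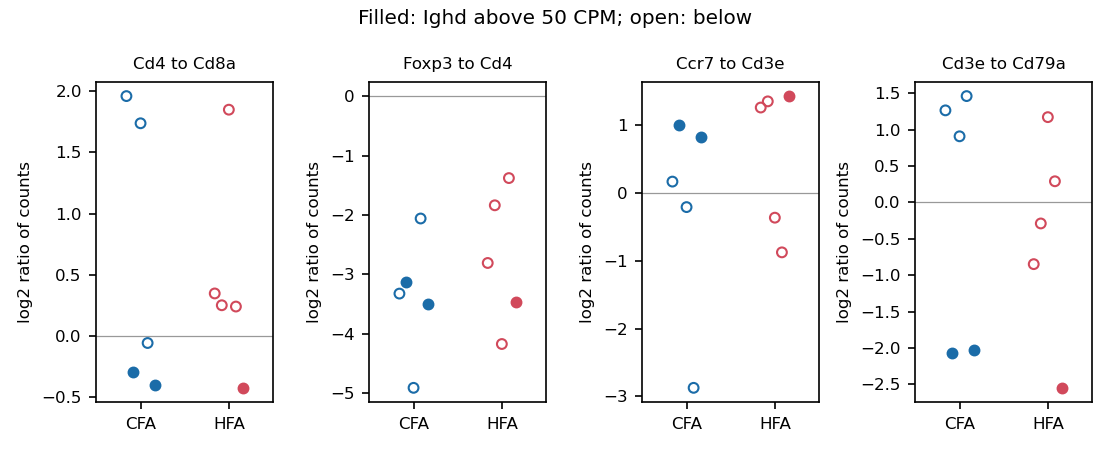
Log2 ratio of counts of 2 genes in each library, by diet, for 4 ratios. Filled points are the 3 libraries with *Ighd* above 50 CPM and open points the 7 below. For *Cd4* to *Cd8a* and *Cd3e* to *Cd79a* the filled points lie under all open points, and for all 4 ratios the diets overlap.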

How the data were processed

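Mammary gland RNA-seq of 5 CFA and 5 HFA mice was analysed, with the diet of each as its label gives it. Per the labels and the paper, the authors aligned the reads to GRCm38 with TopHat2 2.0.14 and Bowtie2 2.2.5 and counted them with HTSeq 0.6.1. The deposited values are whole-number counts per Ensembl gene, without normalization, and reads with more than 1 alignment (28.8% to 33.9% of the counted lines) were left out by that counting. Whether strand was used in counting is not given in the sources used here, so reads of overlapping genes may be shared or lost. Symbols, positions and exon lengths are from GENCODE M21, which held 46488 of the 46983 identifiers.

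The test on counts was that of edgeR 4.0.16 in R 4.3.3 (filterByExpr, TMM, glmQLFit, glmQLFTest), with diet as the single factor. P-values were adjusted by Benjamini-Hochberg over all genes tested, and 0.05 was the threshold. A standard error (SE) is the estimate over the square root of its F statistic. The study's model also held cage, which the labels do not give. On simulated counts with 200 genes changed by 2 on the log2 scale, the test recovered 150 with 7 false calls for all 10 libraries (15610 genes), and 176 with 12 for the 7 with *Ighd* below 50 CPM (15759 genes). The changed genes were drawn at random from all genes, and genes varied independently of each other. These figures therefore do not give the power for the T cell genes, which move together with the *Ighd* class. Ratios were tested with scipy 1.17.1.

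Other settings tried were scaling by RLE or upper quartile, a filter of CPM above 1 in 5 or more libraries or none, DESeq2 1.42.0, the likelihood ratio test, voom of limma 3.58.1 (plain or quality-weighted), each library left out, and a term for the second title digit, the *Ighd* class or a block of the last 3 title digits. The alternatives within the 7 libraries and the interaction were added after the data had been seen. The 30 genes and the marker lists were chosen with earlier results of these data known. All 30 are named. Names from the other lists were limited to *Ighd*, the 2 genes of highest mean CPM in each list and those past the threshold, and 1 of these genes is not reported here. *Rag1*, *Rag2*, *Ptcra*, *Cd79a*, *Ccl19* and *Ccl21a* were named for the checks they serve.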

Additional observations from a re-analysis of the deposited data

Results flagged for a closer look

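In each diet group of 5 libraries, and among the 4 HFA libraries with *Ighd* below 50 CPM, the gap of the highest or lowest library to its neighbour was divided by the range of the group and set against Dixon's critical value. Chance passes about 1 in 20 groups, and 102 groups were examined, many of them over genes that move together. In HFA, T2334 stood apart for 29 of the 30 genes, all but *Thy1*. T2334 was the only HFA library with *Ighd* above 50 CPM, so this repeats the split by *Ighd* and is no further result. The share of all genes that would pass was not computed. The share of the range was highest for *Cd8b1* (0.997), *Cd3d* (0.996), *Lck* (0.996) and *Themis* (0.995). It was 0.994 for *Cd3g*, *Cd8a*, *Lat* and *Lef1*, 0.993 for *Skap1*, *Ptprcap* and *Ccr7*, 0.991 for *Cd3e*, *Cd4*, *Cd5* and *Tcf7*, and 0.990 for *Trac* and *Ctla4*. It was 0.988 for *Cd28*, 0.986 for *Zap70* and *Cd6*, 0.982 for *Txk*, *Rasgrp1* and *Cd2*, 0.979 for *Bcl11b*, 0.976 for *Il7r*, 0.975 for *Icos* and 0.972 for *Cd27*. It was lowest for *Foxp3* (0.959) and *Cd247* (0.956). In CFA, where T1234 and T1334 both had *Ighd* above 50 CPM, 0 genes passed.

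Among the 4 HFA libraries with *Ighd* below 50 CPM, *Ctla4* had a share of 1.0, from T2224 with its only 2 reads against none in the other 3 libraries. The ratio of *Cd4* to *Cd8a* had a share of 0.933, with T2234 at 1.85 on the log2 scale and the other 3 libraries at 0.24 to 0.35. T2234 had 4 reads of *Cd8a*.

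For 10 genes the interaction of diet and *Ighd* class had an adjusted p below 0.05 in edgeR's quasi-likelihood test. The HFA group above 50 CPM is T2334 alone, so these values set 1 library against the rest and do not show that the diet effect differed. The adjusted p was 0.0225 for *Tcf7*, 0.0256 for *Cd3g*, 0.0285 for *Lck*, 0.0332 for *Trac*, 0.0341 for *Cd8b1* and for *Bcl11b*, 0.0353 for *Cd28*, 0.0461 for *Rasgrp1*, 0.0467 for *Cd3d* and 0.0476 for *Cd4*.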

How the results depend on the processing

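Over all 10 libraries, 0 genes were called by the quasi-likelihood test, 60 by DESeq2, 33 by the likelihood ratio test, 1037 by quality-weighted limma voom and 469 within the 7 libraries with *Ighd* below 50 CPM, and 0 to 6 with 1 library left out. Of the 30 genes 0 were called in each of these but the 7 libraries, with 1. The median log2 fold change of those of the 30 genes tested changed sign, from 0.70 to −0.52 by limma voom, −1.06 with quality weights, −0.40 with a term for the second title digit and −0.52 within the 7 libraries, and it ran from −3.30 (without T2334) to 1.86 with 1 library left out. *Cd3e* changed sign to −0.64, −1.46, −0.59 and −0.76 under the same settings in that order, and ran from −3.82 to 1.84 with 1 library left out. *Tcf7* changed to −0.96, −1.72, −0.46 and −1.48, also to −0.39 with the *Ighd* class as a term, and ran from −3.30 to 1.52. *Thy1* changed to 0.73 within the 3 libraries above 50 CPM and ran from −1.04 to 0.025. The cause was not tested beyond the removal of T2334.

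The last 3 title digits are shared by 4 pairs of libraries, and the correlation of their deviations from the group means was 0.298, −0.294, 0.111 and 0.41, not all over 0.1. The labels do not say what the digits stand for, so pairing was not assumed. With these digits as a replicate block, 0 genes were called, the median of the tested T cell genes was −0.82, *Cd3e* was −0.77 and *Tcf7* −1.62. The block fit rests on these 4 pairs, and the unpaired libraries add nothing to its diet effect.

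Within the 7 libraries, 469 genes were called, 1721 by DESeq2, 1589 by the likelihood ratio test and 827 with no filter, and 0 to 1236 with 1 library left out. Of the 30 genes 1 was called, 3 by DESeq2, 3 by the likelihood ratio test, and 0 to 3 with 1 library left out. Over all genes, the lowest counts were 0 without T1314 or T2214, and the highest came without T1324. Of the 30 genes, 3 were called without T1324 and 0 without any 1 of the other libraries. *Tcf7*, *Bcl11b* and *Trac* stayed below 0 under every alternative run. The difference in the ratio of *Cd4* to *Cd8a* ran from −0.49 to 0.20 with 1 library left out, that of *Cd3e* to *Cd79a* from −0.84 to 0.18, and that of *Foxp3* to *Cd4* was −0.15 within the 3 libraries above 50 CPM. In the 7 libraries depth limited *Lef1*, *Foxp3* and *Ctla4*, with 20, 23 and 6 reads in all.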

Other observations

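Cells related to T cells were followed by their own marker lists, chosen with earlier results of these data known. The cytotoxic effector genes summed to 11.6 to 19.2 CPM in the 7 libraries with *Ighd* below 50 CPM and to as much as 361 CPM in the 3 above. The most abundant of them, *Ccl5*, a chemokine of effector T cells and natural killer cells, was at 54.8, 103 and 251 CPM in T1234, T1334 and T2334 and at 3.47 to 5.97 CPM in the others. Of the 7 effector genes tested, 0 were called between diets, over all libraries or within the 7. The gamma delta T cell genes summed to 25.3 to 34.7 CPM above and 24.5 to 28.9 CPM below, most of it *Sox13*, with a mean of 22.5 CPM. *Sox13* was at 27.8, 14.9 and 8.59 CPM in T1234, T1334 and T2334 and at 23.0 to 27.1 CPM in the 7. The other 4 genes of that list were each higher in all 3 libraries above than in any below.

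Of the 5 genes of thymocytes, *Arpp21* was called higher in HFA within the 7 libraries (log2 fold change 1.54, SE 0.28, adjusted p = 0.0428). It was at 1.65, 1.95 and 1.73 CPM in the CFA libraries T1224, T1314 and T1324, at 5.76, 4.74, 3.41 and 6.77 CPM in the HFA libraries T2214, T2224, T2234 and T2314, and at 1.32, 2.69 and 0.191 CPM in T1234, T1334 and T2334, so it did not follow *Ighd*. The 5 skeletal muscle genes summed to 15689 to 30375 CPM in those CFA libraries and to 37463 to 49639 CPM in those HFA libraries. They summed to 6117, 37612 and 635 CPM in T1234, T1334 and T2334. The part of muscle in the level of *Arpp21* was not tested. *Rag1* and *Rag2* had no read in any library, and 1 of the 5 genes was higher in each of T1234, T1334 and T2334 than in any other library. Dendritic cell genes summed to 51.4 to 123 CPM above and 23.7 to 41.5 CPM below. Macrophage genes overlapped between the classes, at 569 to 1388 CPM and 148 to 947 CPM, with the lowest sum in T2314. Of the fibroblast, adipocyte, dendritic and macrophage genes tested, 0 were called between diets in either fit.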
